A study of Mus musculus with 28 samples.

Results

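Gene deserts are long stretches of the genome without protein-coding genes. The H3K27ac intervals described here lie in such stretches, more than 200 kb from the nearest start or end of a protein-coding gene and outside every such gene. They were chosen by position alone. Of the 125826 intervals in the deposited list, 125509 lay on chromosomes 1 to 19 and X, and 10746 of these (8.56%) met the rule. The list was called on the merged reads of 4 libraries from wild-type mouse embryos at E10.5, 1 library for each of the cranial neural crest populations labelled FNP, Mx, Md and PA2. Per the labels, the embryonic tissue was dissected and fixed, and the crest cells were sorted before immunoprecipitation; the marker used for sorting is not given in the sources used here. The list gives no population for an interval and has no replicates, so no value below carries a replicate error and none was tested.

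Acetylation of histone H3 at lysine 27 marks active promoters and enhancers. Enhancers are short stretches of DNA that raise transcription of a gene from a distance, and many developmental genes that are used in several tissues are flanked by deserts that hold large numbers of them. Cranial neural crest cells leave the neural tube, fill the facial prominences and pharyngeal arches and form most of the facial skeleton. Remote enhancers in deserts around genes such as Sox9 and Myc are known for their part in the shape of the face and the closure of the lip and palate.

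A desert is taken here as the space over 400 kb between neighbouring protein-coding genes, and its core as the part over 200 kb from both. The genome held 793 such deserts with 492 Mb of core. In them lay 10691 of the intervals, and the other 55 lay beyond the first or last gene of 5 chromosomes. Intervals were found in 615 of the 793 deserts, and 178 (22.4%) held none. A desert with intervals held a median of 9, 307 deserts held at least 10, and 12 held at least 100.

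Most sequence of these intervals cannot be shown from the tables used here, but 109 of them overlapped the promoter window of a long non-coding RNA gene, from 250 bases before to 50 after its start. The 5 windows below are shown because, of those that lie whole inside an interval in deserts with at least 30 intervals, theirs had the highest scores. They are given 5′ to 3′ on the strand of the gene, with CANNTG, the core of the E-box bound by basic helix-loop-helix factors such as Twist1, and TAATTA, a homeodomain core, in capitals. Both motifs read the same on either strand and cannot overlap each other. The sequences are from RefSeq (GRCm38.p6), all on the plus strand.
Mir99ahg, chr16:77329078-77329377: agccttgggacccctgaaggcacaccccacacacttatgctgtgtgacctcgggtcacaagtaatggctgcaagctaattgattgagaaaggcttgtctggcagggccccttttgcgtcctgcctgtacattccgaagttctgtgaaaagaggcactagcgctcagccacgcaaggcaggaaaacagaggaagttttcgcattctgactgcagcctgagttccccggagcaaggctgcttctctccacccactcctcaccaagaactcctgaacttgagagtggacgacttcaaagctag
Gm32123, chr14:25109011-25109310: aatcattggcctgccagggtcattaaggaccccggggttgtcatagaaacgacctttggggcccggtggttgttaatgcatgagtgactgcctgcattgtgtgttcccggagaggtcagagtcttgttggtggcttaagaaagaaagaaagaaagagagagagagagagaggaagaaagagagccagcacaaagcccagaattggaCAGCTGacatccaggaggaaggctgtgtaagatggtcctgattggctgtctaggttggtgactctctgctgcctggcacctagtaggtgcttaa
Mir100hg, chr9:41376276-41376575: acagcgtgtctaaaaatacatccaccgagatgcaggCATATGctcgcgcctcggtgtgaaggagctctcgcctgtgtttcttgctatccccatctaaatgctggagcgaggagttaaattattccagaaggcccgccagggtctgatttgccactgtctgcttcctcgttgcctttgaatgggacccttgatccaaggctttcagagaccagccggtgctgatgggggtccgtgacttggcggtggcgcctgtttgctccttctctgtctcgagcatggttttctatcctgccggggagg
Gm32531, chr8:103270966-103271265: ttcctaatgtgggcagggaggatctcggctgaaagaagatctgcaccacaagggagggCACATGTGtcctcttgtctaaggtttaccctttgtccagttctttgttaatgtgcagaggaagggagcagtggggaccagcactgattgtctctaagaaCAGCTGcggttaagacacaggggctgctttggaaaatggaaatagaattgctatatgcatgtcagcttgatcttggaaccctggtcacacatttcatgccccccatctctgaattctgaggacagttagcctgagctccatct
Gm5860, chr4:82065130-82065429: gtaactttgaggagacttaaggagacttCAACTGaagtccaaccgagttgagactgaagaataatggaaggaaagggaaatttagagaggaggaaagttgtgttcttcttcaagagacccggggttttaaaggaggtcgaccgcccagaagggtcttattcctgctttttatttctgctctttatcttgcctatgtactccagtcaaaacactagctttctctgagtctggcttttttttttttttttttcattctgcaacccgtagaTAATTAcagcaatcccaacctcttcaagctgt

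The Mir99ahg window held neither motif. CANNTG occurred 3 times in the Gm32531 window, which lies between the cadherin genes Cdh11 and Cdh5, and 1 time in each of the Gm32123, Mir100hg and Gm5860 windows. TAATTA occurred 1 time, in the Gm5860 window in the desert between Mpdz and the transcription factor gene Nfib. Over all 32851 RefSeq windows of 300 bases, 72.3% held CANNTG and 5.29% held TAATTA. The Mir100hg window held 15 CpG dinucleotides and the Gm32531 window 2, against a median of 7 over all windows. The intervals at these windows had scores of 2240 at Mir99ahg, 1583 at Gm32123, 1057 at Mir100hg, 674 at Gm32531 and 472 at Gm5860. The score is the authors' deposited value, by the convention of the peak caller MACS2 a multiple of the negative logarithm of an interval's q-value. It ranks intervals within this list alone.

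Mir99ahg and Mir100hg are known as host genes of related microRNA clusters, and both lie in deserts rich in acetylation. In the annotation used here Mir100hg spans its hairpins. Mir99ahg ends at 77558428 on chromosome 16, before the hairpins of Mir99a and Mirlet7c-1. Of the mature microRNAs below, miR-99a and miR-100 show the relation. The others, let-7c and miR-125b, are a further member of each cluster and have other seeds. The seed (bases 2 to 8, which pair with target transcripts) is in capitals.
mmu-miR-99a-5p, chr16:77598940-77598961: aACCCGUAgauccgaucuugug
mmu-miR-100-5p, chr9:41531437-41531458: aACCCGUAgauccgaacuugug
mmu-let-7c-5p, chr16:77599672-77599693: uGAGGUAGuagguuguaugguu
mmu-miR-125b-5p, chr9:41581940-41581961: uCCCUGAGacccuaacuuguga

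The microRNAs miR-99a and miR-100 have the seed ACCCGUA in common. The desert from Usp25 to Cxadr on chromosome 16, with Mir99a and Mirlet7c-1, held 64 intervals with a median score of 99. The desert from Ubash3b to Gm40514 on chromosome 9, with Mir100, Mirlet7a-2 and Mir125b-1, held 56 with a median score of 149. The hairpin of Mir125b-1 lay inside an interval of 1436 bp with a score of 1666 (chromosome 9, 41581288 to 41582723). It was 1 of 5 intervals within 5 kb of that hairpin, with scores from 211 to 1666. The other hairpins lay outside intervals. The nearest one was 5.39 kb from Mir100, 10.7 kb from Mirlet7a-2, 5.58 kb from Mir99a and 6.31 kb from Mirlet7c-1. In all, 46 of 1005 annotated microRNA hairpins lay in deserts, and 8 of them had a desert interval within 5 kb. A cluster of 13 Mir344 hairpins between Gm51483 and Ndn lay in a desert without any, at least 949 kb from the nearest desert interval.

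Desert intervals were narrower and had lower scores than the rest of the list. The median desert interval was 231 bp wide, with quartiles of 172 and 348 bp, against 260 bp (183 and 413 bp) for intervals between genes within 200 kb and 291 bp (189 and 563 bp) for those that overlap a protein-coding gene. Their median score was 94 (quartiles 70 and 142), against 109 (75 and 210) between genes within 200 kb and 119 (77 and 374) in genes. A score of at least 1000 was reached by 134 desert intervals (1.25%), against 12.5% of all other intervals. A width of 141 bp, the least in the list and equal to the length to which reads were extended, was found for 6.16% of desert intervals, against 3.98% of all others. The 536 intervals from 200 to 210 kb had a median width of 240 bp and a median score of 94, and the 581 from 190 to 200 kb had 246 bp and 94. Scores of at least 1000 were held by 4 of the 536 (0.746%) and by 14 of the 581 (2.41%).

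Intervals were sparser at each step away from genes and were still present beyond 1000 kb. Between the outer genes of the chromosomes there were 53.4 intervals per Mb within 10 kb of a protein-coding gene, 38.7 from 100 to 200 kb, 29.0 from 200 to 500 kb, 14.5 from 500 to 1000 kb and 7.43 beyond 1000 kb. Desert cores held 21.7 per Mb as a whole, against 45.6 in the space within 200 kb of genes and 65.2 inside genes. The share with a score of at least 100 was lower in each farther class. It was 66.0% within 10 kb, 44.9% from 200 to 500 kb and 37.7% beyond 1000 kb. The median desert interval lay 338 kb from a gene, 504 lay over 1000 kb away, and the most remote lay 2235 kb away.

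**Figure D1:**
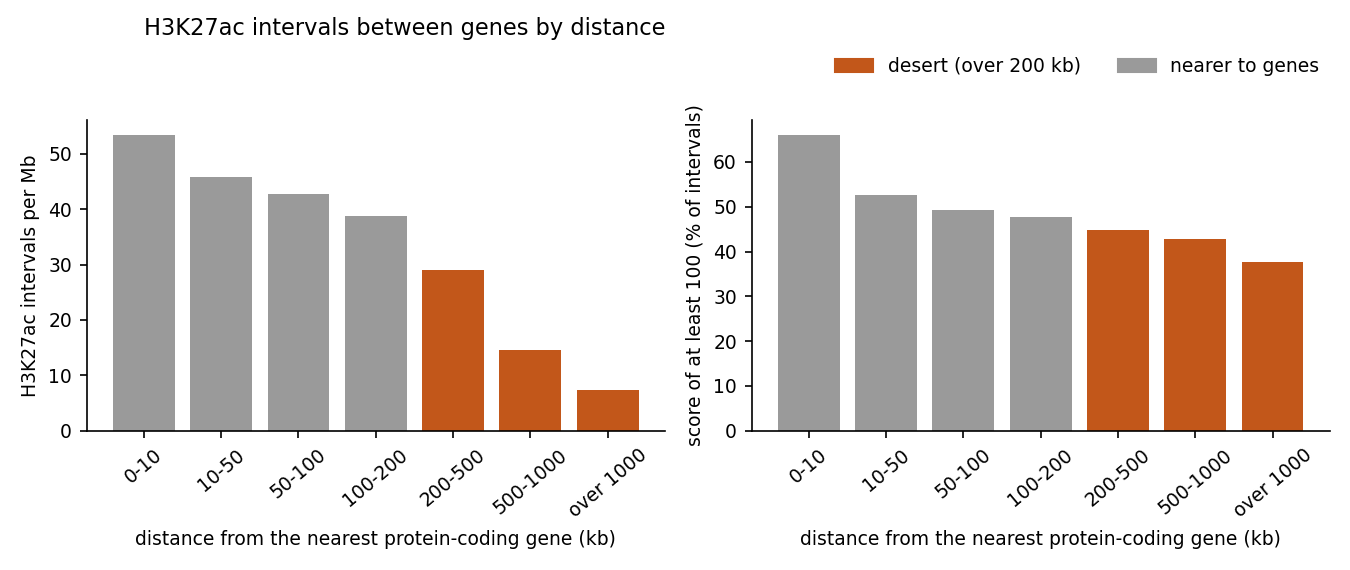
H3K27ac intervals between protein-coding genes by distance from the nearest such gene, as intervals per Mb (left) and as the percentage of intervals with a score of at least 100 (right). Orange bars are desert classes and grey bars nearer classes. Density decreases in each step, to 7.43 per Mb beyond 1000 kb, while the share of higher scores changes less.

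Chromosomes differed in how much of their desert was acetylated. Among autosomes, cores held between 14.8 intervals per Mb on chromosome 6 and 36.7 on chromosome 13. The X chromosome had 71 deserts with 35.2 Mb of core, in which 68 intervals lay, or 1.93 per Mb, against 23.3 on the autosomes together. Near genes and far from them together, the X chromosome also had the fewest intervals of chromosomes 1 to 19 and X. It had 1927 of 125509, against 3350 to 9459 on single autosomes.

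The number of intervals was uneven between deserts and was not set by length alone. The 10 richest deserts held 11.3% of desert intervals and the 15 richest 15.8%, in 5.76% of the core length. At least 50% of them lay in 86 deserts. The 15 richest had 59.8 intervals per Mb of core, against 21.7 for all deserts. The 10 deserts with the longest cores had 5.81 per Mb, and 1 of them, from Zeb2 to Acvr2a, was among the 15 richest. The longest core, of 4142 kb between the protocadherin genes Pcdh20 and Pcdh9, held 13 intervals. Across the 793 deserts, Spearman's rho was 0.50 between core length and number of intervals. It was 0.75 between the density in the core and the number of intervals in the 200 kb next to each flanking gene. Neighbouring deserts can have a flanking gene in common, and all values come from the same merged reads.

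**Figure D2:**
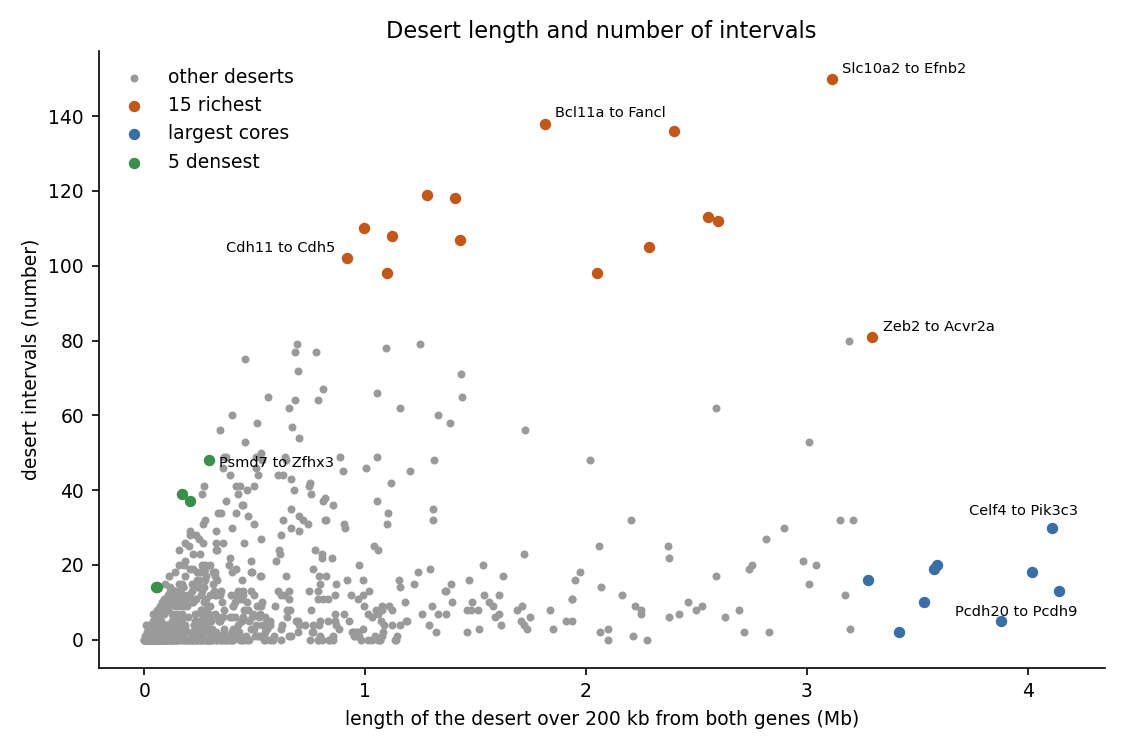
Number of H3K27ac intervals in each of 793 deserts against the length of its core in Mb. The 15 deserts with the most intervals (orange) have cores of 916 to 3297 kb, while the 9 other deserts of the 10 with the longest cores (blue) hold 2 to 30 intervals each. The 5 deserts with the most intervals per Mb (green) are short.

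The 15 richest deserts are described by what their flanking genes encode, an arrangement made after they were known and with no test of any group. Ephrins and their receptors are membrane-bound partners that sort and guide migrating crest cells. The richest desert of all, with 150 intervals, spans 3512 kb on chromosome 8 (5105288 to 8617234) between the bile acid transporter gene Slc10a2 and Efnb2, which encodes ephrin-B2. Of its intervals 90 were nearer to Efnb2 and 60 to Slc10a2. Its largest run had 14 intervals in 46.1 kb and lay 347 kb from Efnb2. Efnb2 had a score of 2283 at a gene end, and Slc10a2 had no interval there. The desert from Slc4a3 to the ephrin receptor gene Epha4 on chromosome 1 (75559432 to 77367181) held 118, or 83.8 per Mb of core, with a highest score of 1095. That of the receptor gene Epha7 on chromosome 4 (28967504 to 31963491) held 112, up to Map3k7, a kinase gene of TGF-beta and BMP signalling.

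Adhesion proteins hold cells of a kind together. The desert between Cdh11, the cadherin of mesenchymal cells, and Cdh5, the cadherin of endothelial cells, held 102 intervals in a core of 916 kb on chromosome 8 (102785494 to 104101612). Its density of 111.3 per Mb was the highest of the 15, and so was its median score of 113.5 (quartiles 80 and 203). A run of 16 intervals over 56.3 kb, 475 kb from Cdh11, held the Gm32531 promoter window shown above. Cdh11 had a score of 3623 at a gene end and Cdh5 98. Flrt2, which encodes a transmembrane protein of cell adhesion and axon guidance, had 136 intervals in the desert toward the provisional gene Gm40892 on chromosome 12, with no interval at either annotated end of Flrt2. Fat4, an atypical cadherin gene, and Intu, a planar polarity and ciliogenesis gene, flanked 108 intervals at 96.5 per Mb. Adgrl2, the gene of the adhesion receptor latrophilin 2, had 107 intervals in the desert toward the tubulin polyglutamylase gene Ttll7 and 98 in the desert toward Adgrl4. Its total of 205 was the highest for any gene with a desert on each side, ahead of Flrt2 with 184, Zfp608 with 158, Gm40892 with 148 and Sox11 with 147.

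The remaining deserts lay beside genes of mixed function. The desert between Bcl11a, a zinc-finger repressor gene, and Fancl, a gene of the Fanconi anaemia repair pathway, held 138 intervals on chromosome 11 (24173559 to 26387083), 77 of them nearer to Bcl11a and 61 to Fancl. In the desert of Cited2, a coregulator that binds CBP and p300, 93 of 113 intervals were nearer to Cited2 and 20 to the neuropeptide receptor gene Nmbr. A run of 14 lay 507 kb from Cited2. The desert of Nr2f1, an orphan nuclear receptor gene, was uneven too, with 85 of 105 intervals nearer to Nr2f1 and 20 to Arrdc3. Zfp608 and Gramd3 on chromosome 18 flanked 110 intervals at 110.6 per Mb and with a median score of 111. Zeb2, a regulator of the epithelial-to-mesenchymal transition, flanked 81 intervals with a highest score of 1395. Marcks, which encodes an actin-binding kinase substrate, and Rfpl4b flanked 119, with a highest score of 1231, and Nrsn1 and Hdgfl1 flanked 98.

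**Figure D3:**
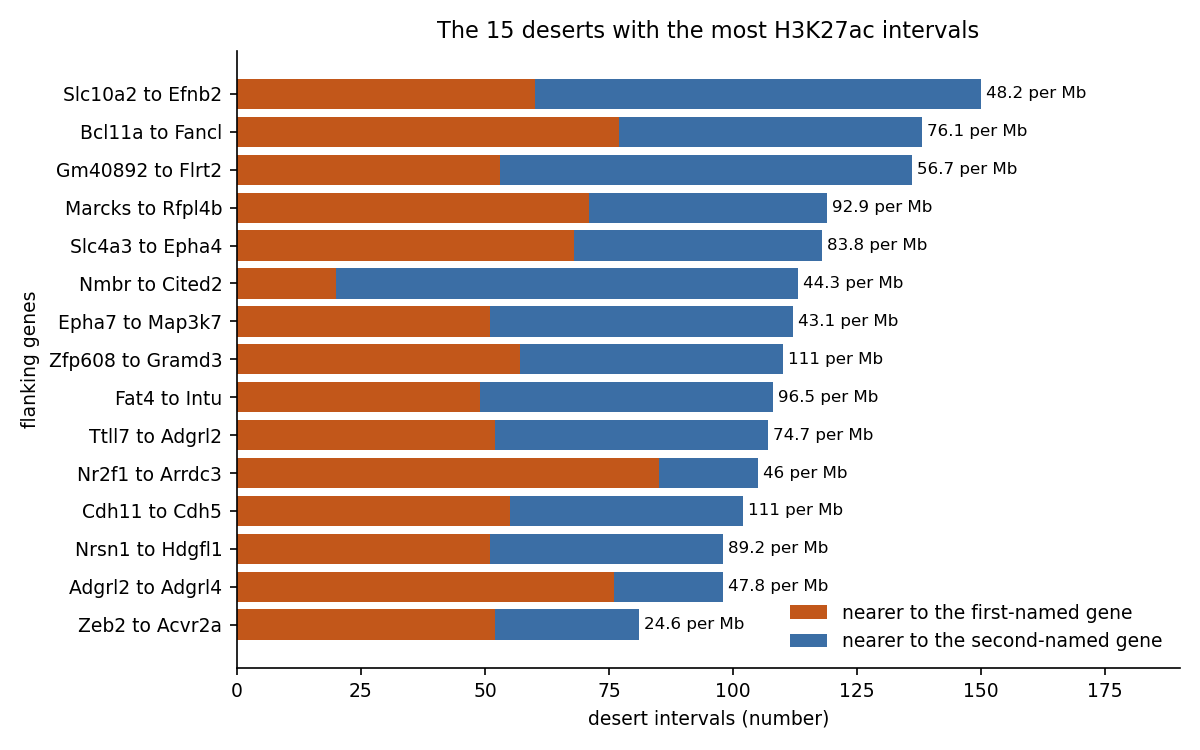
Number of desert intervals in the 15 deserts that hold most, from 150 to 81, split by the flanking gene each interval is nearer to, with intervals per Mb of core beside each bar. The deserts of Cited2 (93 of 113) and Nr2f1 (85 of 105) are the most one-sided.

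**Figure D4:**
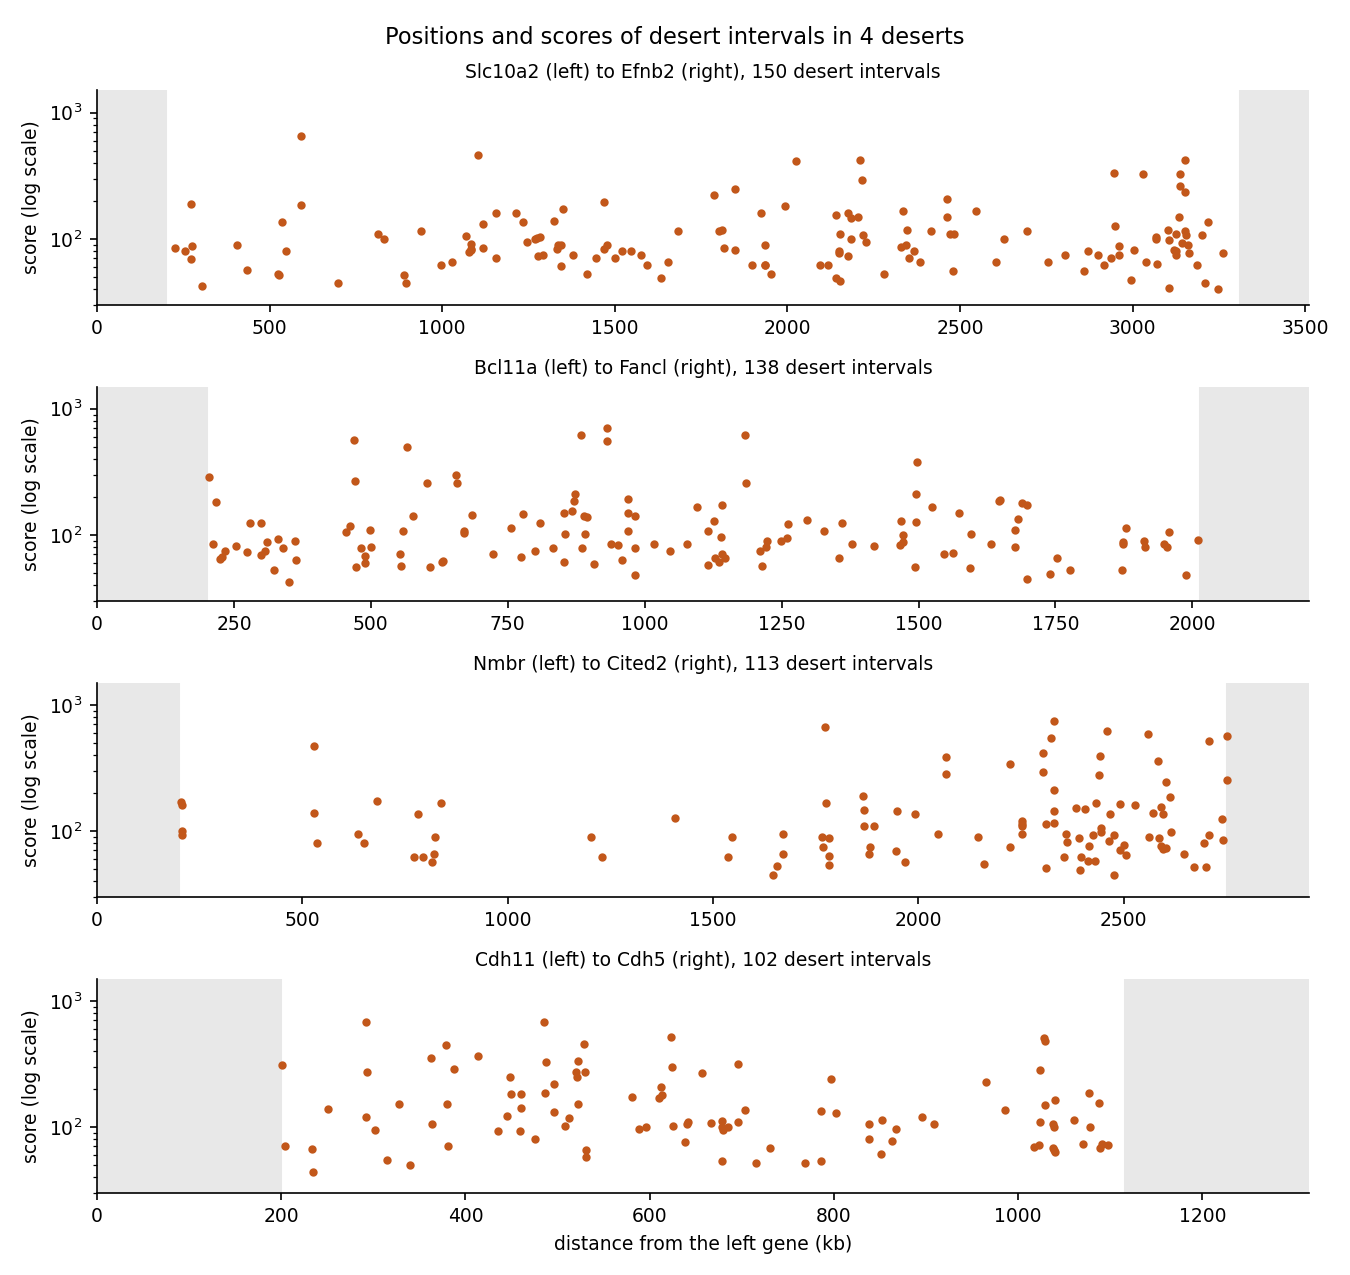
Score on a log scale against distance from the left gene in kb for each desert interval (points) of 4 of the 15 richest deserts, with the 200 kb next to each gene in grey. Intervals run through the whole core between Slc10a2 and Efnb2 and crowd toward Cited2 in the desert from Nmbr to Cited2.

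The genes next to rich deserts were themselves often acetylated. The choice of intervals did not use this measure, but it comes from the same list that ranked the deserts and is not independent of it. An interval lay within 1 kb of an end of 25 of the 29 genes that flank the 15 richest deserts (86.2%), against 66.1% of all 21523 protein-coding genes and 69.4% of the 1397 genes that flank a desert. With genes taken as independent, the limits of counting error for the 86.2% were 69.4% and 94.5%. In the higher-scored 50% of the list the share was 72.4%, and the share over all genes was not counted there. By the number of intervals in the fullest desert a gene flanks, the share was 52.9% with 0 intervals, 68.9% with 1 to 9, 78.6% with 10 to 29, 76.1% with 30 to 49 and 81.2% with 50 or more. The median score at a marked end did not rise in the same order. In these classes it was 1564, 1268, 1999, 2532 and 1672. It was 2283 for the 15 richest deserts, against 2495 for all protein-coding genes. Marked ends include low scores, such as 70 at Gramd3 and 98 at Cdh5. The 4 unmarked genes of the 29 were Flrt2, Gm40892, Rfpl4b and Slc10a2. Start sites inside a gene are not seen by this measure.

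Intervals also lay close to each other. They formed 4829 runs with gaps of at most 12 kb, of which 2465 were single intervals and 66 held at least 10. Runs of 5 or more held 31.8% of desert intervals. Apart from a group of 38 at the start of chromosome 9, the longest run had 29 intervals over 79.6 kb on chromosome 6 (50907207 to 50986823), between Npvf and Gm38821. The next had 24 in the desert from Cmpk2 to Sox11, 22 in that from Psmd7 to Zfhx3 (227 kb from Psmd7 and 392 kb from Zfhx3), 21 between Slitrk5 and Gpc5, and 20 in the desert of Sox4, a close relative of Sox11.

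Ranked by density, short deserts came first, and none of the 15 densest was among the 15 richest. With at least 10 intervals required, the densest core was that between Tbc1d1 and Gm38457 on chromosome 5 with 275 per Mb, 14 intervals in a single run over 47.2 kb. The desert from Sox9, the main regulator of cartilage, to Slc39a11 followed with 245 per Mb (14 intervals), then Npvf to Gm38821 with 231 (39), Runx1t1 to Slc26a7 with 178 (37) and Psmd7 to Zfhx3 with 165 (48). In the same order, from the desert of Tbc1d1 on, the cores were 50.9, 57.1, 169, 207 and 291 kb long. In cores as short as the first of these, a few intervals give a high density. Median scores were 146 in the desert from Tbc1d1, 99 in that from Sox9, 141 in that from Npvf, 83 in that from Runx1t1 and 143.5 in that from Psmd7, against 94 for all desert intervals. On its other side Sox9 had 62 intervals up to the provisional gene Gm11677, with a highest score of 338.

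By the share of all listed genes beside interval-rich deserts, regulators of crest and mesenchyme came first, apart from a list chosen for its place in deserts. The gene lists were chosen with earlier results of these data known, so this order is a description and no conclusion is drawn from it. Of all protein-coding genes, 2.65% flanked a desert with at least 10 desert intervals, and of the 1397 genes that flank any desert, 40.8% did. In the crest and mesenchyme list 26 of 48 genes did (54.2%), or 26 of the 29 that flank a desert (89.7%). Sox11 had 75 and 72 intervals on its sides, and Myc, the growth regulator, 58 and 35. Ets1, which marks cranial crest, and Sox4 had 60 each. Meis1, a Hox cofactor gene, had 49 and 17, Tbx3 46, Nfib 36 and Shox2 32. Tfap2a and Meox2 flanked deserts with 0 intervals, and Tbx15 flanked 1 interval. The 36 deserts of this list held 58.3 intervals per Mb of core, against 21.7 for all deserts. Several other lists were as dense or denser in fewer deserts and far shorter cores, against 19.2 Mb of core for the crest and mesenchyme list. Cartilage and bone genes had 81.4 per Mb in 4 deserts (71 intervals in 0.872 Mb), and blood markers 74.5 in 2 (55 in 0.738 Mb). Endothelial markers had 111 per Mb in 2 deserts (102 in 0.919 Mb), with all intervals in the desert of Cdh5. Muscle markers had 165 per Mb in 1 desert (7 in 0.0423 Mb). Signalling genes had 40.2 per Mb in 22 deserts, frontonasal regulators 42.1 in 4 and neural fate regulators 14.7 in 15.

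Among frontonasal regulators 2 of 8 flanked at least 10 intervals, or 2 of the 4 that flank a desert, Nr2f1 with 105 and Nr2f2 with 45, while Alx1 had 4 and Pax3 had 3. Among 8 maxillary and oral-proximal regulators Pou3f3 did, with 65, and Meis2 had 6. Among mandibular and distal regulators 3 of 11 reached 10 intervals (27.3%), among them Msx2 with 20 and Hand2 with 16. Those 3 were 100% of the list's genes that flank a desert, against 89.7% in the crest and mesenchyme list. In the signalling list 9 of 38 reached 10 intervals, or 9 of the 20 that flank a desert. Among them were the Notch ligand gene Jag1 with 31, Bmp4 with 29 and Fgf9 with 28. Another was Bmp2, with 19 on the side of Fermt1 and 10 on that of Hao1. Shh had 2. Of the cartilage and bone genes 3 of 14 reached 10 intervals, or 3 of the 4 that flank a desert. These were Matn1 with 34, Sox5 with 23 and Sox6 with 10.

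Genes of adhesion and axon guidance known to lie in gene-poor regions gave another pattern. Because they were listed for that position, 26 of 38 beside at least 10 intervals says nothing by itself. Among the 32 that flank a desert the share was 81.3%, against 40.8% of all such genes. Their 47 deserts were long, with 78.9 Mb of core, and held 15.6 intervals per Mb, against 21.7 for all deserts and 58.3 for the crest and mesenchyme list. Efna5, an ephrin gene, had 80 intervals, the synaptic adhesion gene Slitrk1 71 and 22 on its sides, and Pcdh18 30 and 28. Of the ephrin receptor genes, Epha3 had 15 intervals in its fuller desert and Epha5 had 0.

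Lists of other cells and lineages had lower shares than the crest and mesenchyme list, 0% to 16.7%, with no test of the difference. Smaller parts of these lists flank a desert at all. Among genes that do, 41.7% of 12 neural fate regulators and 66.7% of 3 neuronal markers reached at least 10 intervals. The share was 50% of 2 for blood, endothelium and other lineages alike, and 0 of 1 for muscle. Of all genes that flank a desert, 40.8% did. Neural fate regulators reached at least 10 intervals in 5 of 31, led by Ebf1 with 36 and Sox2 with 29, and regulators of other lineages in 1 of 24, Foxa2 with 10. Markers of other cell types that may be present among sorted cells were counted too. For blood 1 of 13 reached at least 10 intervals (Ptprc, 54, in the desert it has in common with Nr5a2). For endothelium it was 1 of 13 (Cdh5, 102, in the desert it has in common with Cdh11). The counts were 0 of 10 for muscle and 2 of 12 for neurons (Isl1 with 15 and Stmn2 with 12). Ptprc, Stmn2 and Foxa2 had no interval at a gene end. Scores there were 98 at Cdh5, 279 at Sox2, 1024 at Isl1 and 1335 at Ebf1. No housekeeping gene of 20 and no Hox gene of groups 1 to 3 flanked a desert. Whether cells other than crest contributed to single intervals was not tested.

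**Figure D5:**
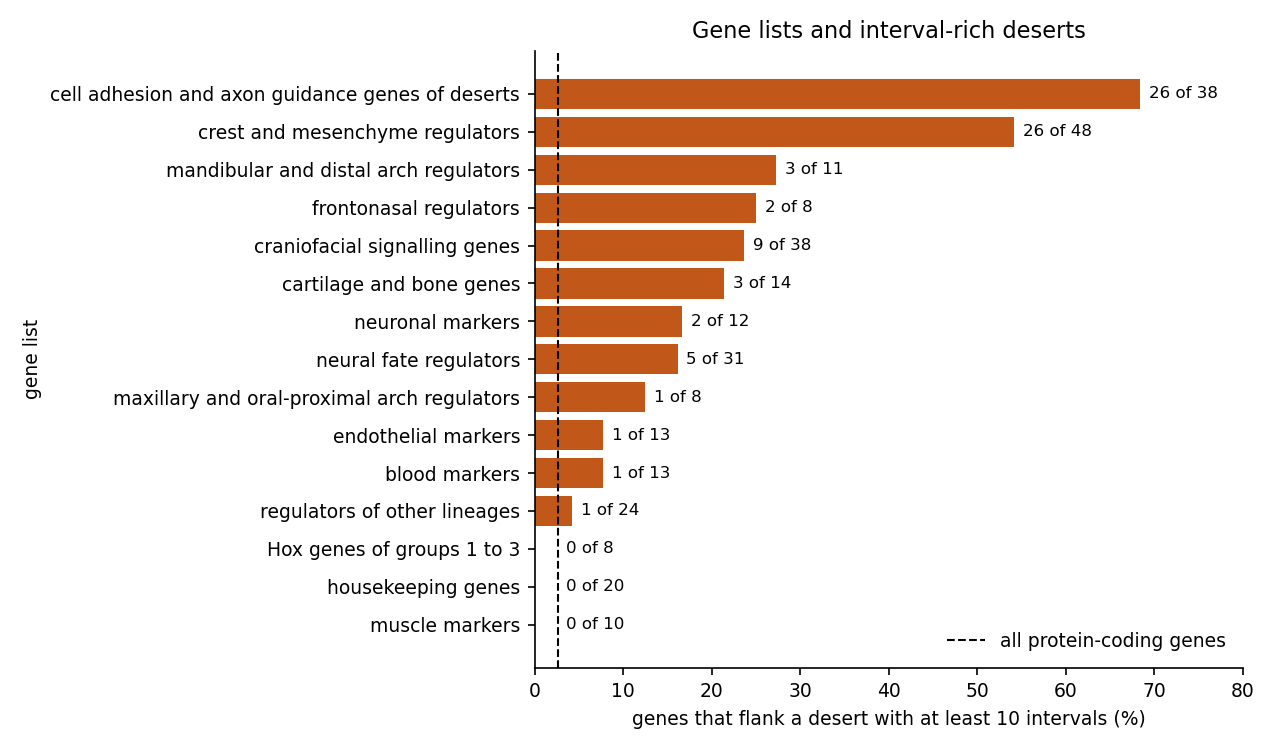
Percentage of the genes in each of the lists reported here that flank a desert with at least 10 desert intervals, with the counts beside the bars and the 2.65% of all protein-coding genes as a dashed line. The crest and mesenchyme list reaches 26 of 48 and the adhesion list, chosen for its place in deserts, 26 of 38.

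The rule counts protein-coding genes, and some desert intervals overlapped other annotated genes. The part of core length that such genes cover was not counted, so nearness to them was not tested. Long non-coding RNA genes were overlapped by 1868 desert intervals (17.4%), with a median score of 98, against 94 for the others. The 109 intervals at a promoter window of such a gene had a median width of 317 bp and a median score of 128, against 231 bp and 94 for all other desert intervals. When every annotated gene, pseudogenes included, counted as the end of a desert, 608 intervals remained over 200 kb away. Desert cores are shorter under that rule, and they held 10.1 intervals per Mb, against 21.7 under the rule used here.

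The widest desert interval had 2342 bp and a score of 2240 and covered the Mir99ahg promoter window. The next were 2139 bp wide in the desert from Cmpk2 to Sox11, 272 kb from Sox11, with a score of 753, 2115 bp between Cyp7b1 and Armc1 with a score of 304, and 1978 bp with a score of 406, 205 kb from Bmp2, a bone morphogenetic protein gene. That of 1919 bp between Rps24 and Zmiz1 holds the Gm32123 window. The others of the 10 widest were 1755 to 1879 bp wide and lay between Irx3 and Irx5, homeobox genes of the same cluster, between Gja1 and Hsf2, Tmem38b and Zfp462, Sox2 and Atp11b, and Cdh26 and 4930591A17Rik.

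The highest scores stood apart from these. All of the 20 desert intervals with scores above 10000 lay at a pair of places. The desert between Lrrc4c and Iftap had 3 of them within 5.23 kb of chromosome 2 (98662154 to 98667384), with scores from 15339 to 3194311, while the median score of its 10 intervals was 107. The other 17 lay within 37.5 kb at the start of chromosome 9 (3000008 to 3037540), before Alkbh8, with scores from 10803 to 64025. The 10 highest-scored desert intervals come from these places, no control is named for the caller, and what gave these scores was not tested. Without the 20 intervals the median score was still 94 and the median width 231 bp.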

How the data were processed

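The study mapped histone marks in mouse cranial neural crest cells with 28 ChIP-seq libraries in 25 groups. The readme deposited by the authors says that alignments of the wild-type E10.5 H3K27ac libraries, 4 in all, were pooled before a single MACS2 2.1.3.3 run. Its options skipped the fragment model, set the shift to 0 and the read extension to 141 bp, kept all duplicates and required a q-value of 0.001. It names no control. GRCm38 and mm10 are given as builds, and Bowtie 1.1.1 and bcl2fastq 2.17 as tools, per the submitters' processing notes. The score of each interval is the authors' deposited value, and the depth behind it is unknown. The deposited positions of starts and ends were read as base pairs of GRCm38, with the first base counted as 1.

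Gene positions came from RefSeq (GRCm38.p6). From the 21523 protein-coding genes kept on chromosomes 1 to 19 and X, spaces between neighbouring genes were built after joining genes that overlap. Another 108 genes that the table places below 3 Mb of a chromosome were left out, since no interval starts below position 3000008. The table holds no assembly gaps, so unread sequence counts as desert length. Runs joined desert intervals with gaps of at most 12 kb. A gene end was called marked when an interval touched the 1 kb on either side of either end. Genes were named when they flank 1 of the 15 deserts with the most intervals, 1 of the 5 densest deserts with at least 10 intervals, or, for genes of the lists, a desert with at least 10. The 10 widest and 10 highest-scored intervals and the largest run of each of the 15 deserts were also chosen by rule, and anything else named was chosen after its values were seen. The members and gene lists were chosen with earlier results of these data known. No statistical test was run, because 1 merged list has no replicates and its intervals are not replicates of a condition. Counting was done with Python 3.11.15 and pandas 2.3.3 and was tested on simulated genomes. Alternatives changed the distance, the score minimum, the gene set and the ranking. A few listed genes, and the list of epithelial markers, are not reported here.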

Additional observations from a re-analysis of the deposited data

How the results depend on the processing

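Of 73 comparisons of a value with its alternative, 42 stayed within counting error or within 1.5 times the count, and 31 moved. Counting error here treats intervals, or genes for the share of flanking genes, as independent. Since many intervals lie in runs, its limits may be too narrow, and they are no replicate error. The tally is a description only. At over 100 kb from a gene there were 19212 intervals (median width 237 bp) in 1173 deserts, 7.32% of them in the 10 richest, at 26.9 per Mb of core. At over 500 kb there were 2635 (225 bp, median score 91) in 216 deserts, 28.8% in the 10 richest, at 12.3 per Mb. With scores of at least 100, 4766 intervals were left (336 bp, score 152, 9.59 per Mb), and in the higher-scored 50% of the list 4006 (365 bp, score 170, 8.04 per Mb). With all annotated genes as desert ends, 608 were left (217 bp, score 89) in 143 deserts, 35.4% in the 10 richest, at 10.1 per Mb. Under that rule 30.0% of the genes flanking the 15 richest deserts had an interval at an end. Those flanking genes can be of any type, and the share over all annotated genes was not counted. The 30.0% therefore cannot be set against the shares of protein-coding genes. Merging intervals within 1 kb gave a median width of 261 bp, a median score of 95 and 16.4 per Mb. Keeping genes placed below 3 Mb, chosen after seeing the data, gave 20.7 per Mb. Ranked by intervals per Mb, 0 of the 15 richest deserts were among the first 15. The last 2 alternatives left the set of 10746 intervals as it was. The cause of these shifts was not tested. No paired analysis was possible because no result comes from a test. Depth is unknown, so a desert without intervals is not shown to lack the mark, and pooling hides which population gave an interval.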

Other observations

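The deserts named here were chosen after their values were seen. Of deserts without any interval, the longest core was that from Vmn2r121 to 4932411N23Rik on the X chromosome, with 2277 kb, followed by 2101 kb from Adam6a to Zfp386 on chromosome 12. Only protein-coding genes end a desert here, so these cores can hold genes of other types. The core from Adam6a to Zfp386 holds microRNA hairpins, among them Mir6388, and is not shown to be poor in genes of every type. The core of 1066 kb between Pot1a and Grm8 on chromosome 6 was empty too, although Pot1a had a score of 4324 and Grm8 of 670 at a gene end. Among intervals with scores of at most 10000 between genes, the highest score was 5885, in an interval of 317 bp on chromosome 14 between Pcdh17 and Diaph3, 456 kb from Diaph3. The third, of 5476, lay 451 kb from Tnc, the gene of the matrix protein tenascin C, in an interval of 385 bp on chromosome 4.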
